A study of Mus musculus with 479 samples.

Results

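The 10 genes described here are heat shock genes of the cytosol and mitochondria, chosen by name from 24475 NCBI gene identifiers as genes driven by heat shock factor 1 (HSF1). They were Hspa1a, Hspa1b, Hspa8, Hsph1, Dnajb1, Bag3, Hspb1, Hsp90aa1, Hspd1 and Hspe1, and each had a row in both lines. The tissues were heart, kidney, liver and lung, and the RNA came from mice carrying 1 disrupted copy of Dchs1 or of Fat4 (Dchs1+/- or Fat4+/-, called Het below) and of their wild-type (WT) littermates. Dchs1 and Fat4 encode giant cadherins that bind each other on neighbouring cells. Each group held 30 libraries, except Dchs1 Het liver with 29, and the 16 groups came to 479 libraries in all. Both lines were made with VelociGene technology on a pure C57BL/6NTac background, which the WT littermates share. No agent is named in the labels, which also give no age, sex, litter or batch. Nor do they state that replicate libraries were different animals, and p-values thus reflect library-to-library spread, which may be technical. Each sample is whole tissue, in which fewer cells of a type and less RNA per cell cannot be told apart.

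Heat shock proteins are chaperones: they hold, refold or hand over proteins that have lost their shape. HSF1 waits in the cell bound to chaperones and, when misfolded protein draws these away, assembles into trimers that bind repeats of a short sequence, the heat shock element, before its target genes. Hspa1a and Hspa1b encode nearly the same stress-inducible Hsp70, while Hspa8 encodes its constitutive counterpart. Hsph1 (Hsp110) is the nucleotide exchange factor, Dnajb1 (Hsp40) delivers clients, and Bag3 links Hsp70 to selective autophagy and to upkeep of the sarcomere in heart muscle. Hspb1 is a small heat shock protein that holds unfolded clients, and Hsp90aa1 is the inducible cytosolic Hsp90. Hspd1 (Hsp60) and Hspe1 (Hsp10) form the folding chamber of the mitochondrial matrix.

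The sequences below are shown because they hold letter patterns like those of the element, and because they show which genes share such a stretch. The element is built from alternating units of GAA and TTC, and 2 letter patterns of facing units were searched, GAANNTTC and TTCNNGAA, each of which reads the same on both strands. A match is a description and was not shown to bind HSF1 here. Of 32851 promoter windows in RefSeq (GRCm38.p6, 250 bases before to 50 after a start), 7.86% held GAANNTTC, 8.52% held TTCNNGAA and 15.1% held either. A run of 3 units (either pair followed by 2 bases and its first unit again) stood in 0.603%. These patterns overlap, since each run of 3 units holds both pairs. Windows were matched for 8 of the 10 genes (11 windows). At least 1 pair stood in windows of 7 genes and a run of 3 in those of 3 genes, Hspd1, Hspe1 and Hsph1. Both Dnajb1 windows held none of the patterns, which says only that these letters were not in them. In the following lines the capitals mark the matches, read 5′ to 3′ on the strand of the gene, or on the plus strand for Hspd1-Hspe1.
Hspa1a: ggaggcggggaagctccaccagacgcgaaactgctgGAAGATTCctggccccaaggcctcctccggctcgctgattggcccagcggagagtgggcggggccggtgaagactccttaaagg
Hspa1b: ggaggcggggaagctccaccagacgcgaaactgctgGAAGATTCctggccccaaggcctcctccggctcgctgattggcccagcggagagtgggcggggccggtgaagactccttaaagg
Hspb1: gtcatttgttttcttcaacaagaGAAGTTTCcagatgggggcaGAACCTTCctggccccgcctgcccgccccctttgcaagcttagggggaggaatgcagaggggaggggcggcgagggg
Hspd1-Hspe1: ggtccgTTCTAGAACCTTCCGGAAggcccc

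The Hspa1a stretch is chr17:34972177-34972296 (minus strand) and the Hspa1b stretch chr17:34959259-34959378 (minus strand), both from 140 to 21 bases before the start. These 120 bases were the same letter for letter, and the whole windows of the pair matched at 296 of 300 bases. Their transcripts share sequence too. Of all stretches of 75 bases in the Hspa1a transcript (2967 bases), 52.7% also occurred in the Hspa1b transcript (2803 bases). Reads from the shared parts can be divided wrongly between them, so single values of the pair are uncertain and their sum is given as well. The Hspb1 stretch, chr5:135887779-135887898 (plus strand), held 2 separate pairs. GENCODE annotates no exon of a gene with a name beginning in Hsp in these 3 stretches. Exons of other genes were not looked up.

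Hspd1 and Hspe1 lie head to head on chromosome 1, and a run of 4 joined units lies between them, inside the printed stretch chr1:55088053-55088082. Seen from Hspe1 the run begins 89 bases before the start, and 215 bases separate that start from the nearer Hspd1 start. A farther Hspd1 start lies 96 bases past the Hspe1 start on the opposite strand, and GENCODE annotates an exon over the printed bases. The libraries were strand-specific per the labels, but whether the counting used strand is not given in the sources used here. In Hsph1 the run of 3 units began 37 bases after one of its starts and a further pair lay 33 bases before it. In Bag3 a pair lay 43 bases after the start.

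The totals of reads assigned to genes ran from 10720364 to 32282525 per library. Medians were close within each pair of groups, for example 19188872 reads in Dchs1 Het kidney and 19081769 reads in Dchs1 WT kidney. In their own line the targeted genes were lower in Het than in WT in every tissue, by log2 fold changes of -1.10 to -1.24 for Dchs1 and -0.95 to -1.07 for Fat4, and every Het library lay below the WT median. The 5 markers of each tissue's main cell type were detected in that tissue. Lung also held 5 cardiomyocyte markers, at a summed 147 to 555 CPM in Dchs1 Het and 163 to 698 CPM in Dchs1 WT lung. In 5 Dchs1 lung libraries (3 Het, 2 WT) and 5 Fat4 liver libraries (2 Het, 3 WT) the correlation with the other libraries stood apart, and counts without them are given where they differ.

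Het and WT were compared within each line and tissue to ask whether losing 1 copy of either cadherin gene changed the expression of the heat shock genes. The 10 genes gave 78 tests, since Hspa1a fell under the count filter in liver of both lines. In the Dchs1 line 19 of 39 tests passed an adjusted p of 0.05 (edgeR's quasi-likelihood test, Benjamini-Hochberg over all genes tested), 15 of them higher and 4 lower in Het, and each of the 10 genes passed in at least 1 tissue. In the Fat4 line 2 of 39 passed, both higher in Het. Many genes of any kind passed in the Dchs1 line: 50.2% of all genes tested in heart, 47.2% in kidney, 49.8% in liver and 20% in lung. In the Fat4 line these shares were 1.6%, 17.1%, 7.15% and 0.136% in the same order. No member separated the groups completely in any comparison: the ranges of Het and WT libraries overlapped in every one. How many of all genes tested separated them was not counted. The plot of fold changes gives each gene in each tissue.

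**Figure D1:**
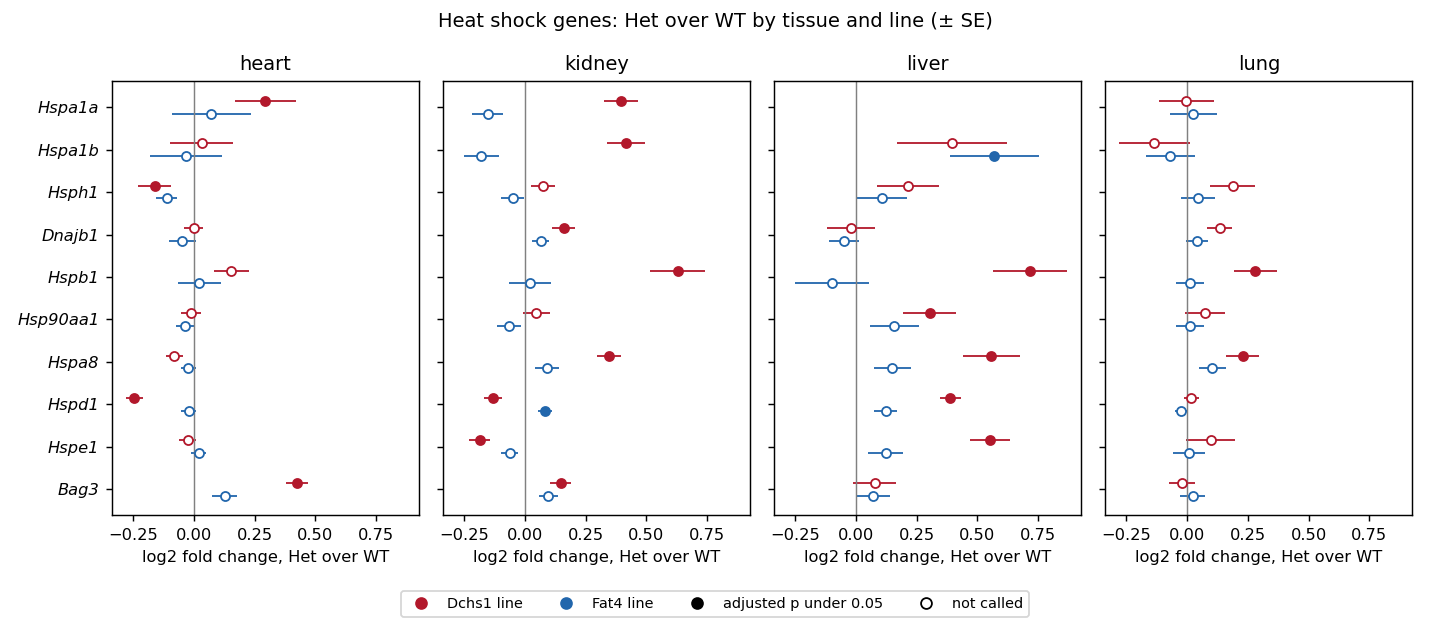
Log2 fold change of Het over WT with its standard error for the 10 heat shock genes in each tissue, with the Dchs1 line in red and the Fat4 line in blue. Filled points passed an adjusted p of 0.05: 19 in the Dchs1 line, spread over all 4 tissues, and 2 in the Fat4 line, Hspd1 in kidney and Hspa1b in liver. Of all genes tested, 20% to 50.2% passed in the Dchs1 tissues and 0.136% to 17.1% in the Fat4 tissues.

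In Dchs1 Het heart Bag3 rose and Hspd1 fell. Of the 10 genes, 2 were higher and 2 lower, in a comparison where 50.2% of all genes tested were called (26.1% higher and 24.1% lower), so that the members' share of calls was no larger than that of all genes. Levels are given as CPM, read counts scaled to library size by TMM, as lowest, median and highest library. Bag3 measured 195, 238 and 302 CPM in Dchs1 Het hearts, against 134, 173 and 242 CPM in Dchs1 WT hearts. All 30 Het hearts lay above the WT median and 12 lay above the highest WT heart. The log2 fold change was 0.43 ± 0.045 (SE, adjusted p = 1.22e-11, edgeR), and 0.44 in the longest stretch of consecutive library numbers, used in place of a batch, which the labels do not give. Bag3 lies on chromosome 7, as does Dchs1, at a distance of 22.7 Mb.

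Hspd1 measured 186, 219 and 298 CPM in Dchs1 Het hearts, against 224, 259 and 312 CPM in Dchs1 WT hearts. Among the Het hearts 29 of 30 lay below the WT median and 18 below the lowest WT heart. Its log2 fold change was -0.24 ± 0.035 (adjusted p = 2.91e-08, edgeR) and -0.25 in the longest stretch. Its partner Hspe1 had medians of 46.5 CPM in Het and 46.4 CPM in WT hearts (log2 fold change -0.026, adjusted p = 0.574, edgeR). The gene for one component of the chamber fell, and that for the other did not pass the test.

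The remaining calls in Dchs1 heart lay close to the threshold. Hspa1a had a median of 5.07 CPM in Het and 3.55 CPM in WT hearts (log2 fold change 0.29 ± 0.13, adjusted p = 0.0462, edgeR), and 6 of 8 alternatives lost the call, among them the sum with Hspa1b (0.21, adjusted p = 0.114). Hsph1 had 33.3 CPM in Het and 37.0 CPM in WT hearts (-0.16 ± 0.067, adjusted p = 0.0376), and 0.194 as its adjusted p in the longest stretch. Hspa8 just missed, at 1010 CPM in Het and 1052 CPM in WT hearts (-0.080, adjusted p = 0.0545), and was called lower with DESeq2 (adjusted p = 0.04997). Dnajb1, Hsp90aa1 and Hspa1b had fold changes between -0.011 and 0.032 and Hspb1 one of 0.15, none of them called. Markers of other cells moved in the same hearts. Of 6 erythroid markers 4 were lower (summed 439 to 5975 CPM, median 1049, in Het and 615 to 8487 CPM, median 1352, in WT), of 5 fibroblast markers 1 was higher and 3 lower (summed 742 to 1098 CPM in Het and 812 to 1155 CPM in WT), and of 5 cardiomyocyte markers 2 were lower (summed 24932 to 41864 CPM in Het and 27226 to 37115 CPM in WT). Their part in the results was not tested.

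In Dchs1 Het kidney 6 of the 8 cytosolic genes rose and both mitochondrial genes fell. The 6 genes higher were Hspb1, Hspa1b, Hspa1a, Hspa8, Dnajb1 and Bag3, and the 2 lower were Hspe1 and Hspd1, where 47.2% of all genes tested were called (23.4% higher and 23.8% lower). The median log2 fold change of the 10 genes was 0.15, beside 0.0052 for all genes. Hspb1 measured 17.97, 26.8 and 44.1 CPM in Dchs1 Het kidneys, against 8.34, 17.1 and 34.3 CPM in Dchs1 WT kidneys. All 30 Het kidneys lay above the WT median, and 6 above the highest WT kidney. The log2 fold change was 0.63 ± 0.11 (adjusted p = 4.37e-06, edgeR) and 0.69 in the longest stretch.

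Hspa8 measured 1943, 2330 and 2880 CPM in Dchs1 Het kidneys, against 1424, 1795 and 2582 CPM in Dchs1 WT kidneys. Again all 30 Het kidneys exceeded the WT median, and 7 exceeded the highest WT kidney (log2 fold change 0.35 ± 0.051, adjusted p = 8.00e-08, edgeR). In the longest stretch the fold change was 0.35. At this level it was the largest gain in CPM among the members in kidney.

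The inducible Hsp70 pair rose together in Dchs1 kidney. Hspa1a measured 11.7, 18.2 and 26.6 CPM in Het, against 10.1, 12.8 and 21.2 CPM in WT kidneys. Hspa1b measured 17.2, 33.5 and 43.2 CPM in Het, against 14.6, 22.5 and 39.8 CPM in WT kidneys. For both, most Het kidneys (28 and 26 of 30) lay above the WT median, with wide overlap. Their log2 fold changes were 0.40 ± 0.072 and 0.42 ± 0.079 (adjusted p = 5.90e-06 and 1.35e-05, edgeR), and that of their sum was 0.42 (adjusted p = 2.18e-06). Dnajb1 and Bag3 rose by less, 0.16 and 0.15 (adjusted p = 0.00305 and 0.00415). Hsp90aa1 and Hsph1 did not pass the test.

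The mitochondrial pair went the other way in Dchs1 kidney. Hspe1 measured 77.1, 93.2 and 122 CPM in Het, against 83.3, 110 and 136 CPM in WT kidneys, and 25 of 30 Het kidneys lay below the WT median. Hspd1 measured 391, 520 and 648 CPM in Het, against 470, 568 and 652 CPM in WT kidneys, with 20 of 30 below. The log2 fold changes were -0.19 ± 0.044 and -0.13 ± 0.037 (adjusted p = 0.000323 and 0.00268, edgeR). These 2 calls depended on the unit. On log2(TPM + 1) with limma the fold changes were -0.082 and -0.038 and neither passed (adjusted p = 0.119 and 0.521), while Hsph1 and Hsp90aa1 were called higher, making 8 higher and 0 lower. That scale raised the median of all genes by 0.085, and 78.5% of all calls were then higher, against 49.5% on counts. Of 5 kidney tubule markers 1 was higher and 3 were lower (summed 2505 to 3587 CPM, median 2965, in Het and 2670 to 5214 CPM, median 3640, in WT), and of 5 leukocyte markers 3 were lower (34.3 to 71.1 CPM in Het and 40.6 to 71.5 CPM in WT). Hepatocyte markers in the same kidneys summed to 83.1 CPM at most in Het and 148 CPM at most in WT (2 higher and 1 lower of 4 tested). The part of these markers in the results was not tested.

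In Dchs1 Het liver 3 cytosolic genes and both mitochondrial genes rose. Hspb1, Hspa8, Hspe1, Hspd1 and Hsp90aa1 were higher and none of the 9 genes tested was lower, where 49.8% of all genes tested were called (24.3% higher and 25.4% lower). The median log2 fold change of the 9 was 0.39, beside -0.0041 for all genes. Hspd1 measured 468, 570 and 686 CPM in Dchs1 Het livers, against 352, 422 and 616 CPM in Dchs1 WT livers. All 29 Het livers lay above the WT median and 5 above the highest WT liver. The log2 fold change was 0.39 ± 0.044 (adjusted p = 9.91e-11, edgeR) and 0.37 in the longest stretch.

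Hspe1 measured 116, 138 and 239 CPM in Dchs1 Het livers, against 57.1, 94.4 and 173 CPM in Dchs1 WT livers. All 29 Het livers again exceeded the WT median (0.55 ± 0.083, adjusted p = 1.40e-07, edgeR; 0.57 in the longest stretch). Hspb1 measured 10.001, 33.5 and 58.5 CPM in Het, against 7.58, 18.1 and 42.0 CPM in WT livers. The WT livers alone spanned 5.55-fold, and 26 of 29 Het livers lay above their median (0.72 ± 0.15, adjusted p = 8.44e-05; 0.82 in the longest stretch).

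Hspa8 measured 734, 1615 and 3068 CPM in Dchs1 Het livers, against 698, 1027 and 3073 CPM in Dchs1 WT livers. The ranges were nearly the same, but 28 of 29 Het livers lay above the WT median (0.56 ± 0.12, adjusted p = 5.99e-05, edgeR; 0.50 in the longest stretch). Hsp90aa1 had medians of 384 CPM in Het and 304 CPM in WT livers (0.30 ± 0.11, adjusted p = 0.0183). The inducible Hsp70 genes were low in liver. Hspa1b had 6.54 CPM in Het and 4.97 CPM in WT livers (0.39 ± 0.23, adjusted p = 0.144), and only 0.0071 in the longest stretch. Hspa1a had medians of 0.530 CPM in Het and 0.267 CPM in WT livers, with no read in 2 Het and 7 WT libraries, and fell under the count filter of the main test. Fits that kept it called it higher: its log2 fold change was 0.91 with DESeq2 (adjusted p = 0.0116), 0.89 in edgeR with no filter on low counts (adjusted p = 0.0193) and 0.91 in edgeR with the stretch of library numbers as a covariate (adjusted p = 0.0106). The sum of the pair was not called (0.42, adjusted p = 0.0999). Hsph1, Dnajb1 and Bag3 did not pass, with fold changes of 0.21, -0.021 and 0.076. Of 5 hepatocyte markers 3 were higher and 2 lower (summed 75598 to 114070 CPM, median 96913, in Het and 64980 to 110658 CPM, median 85936, in WT), and their part in the results was not tested.

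**Figure D2:**
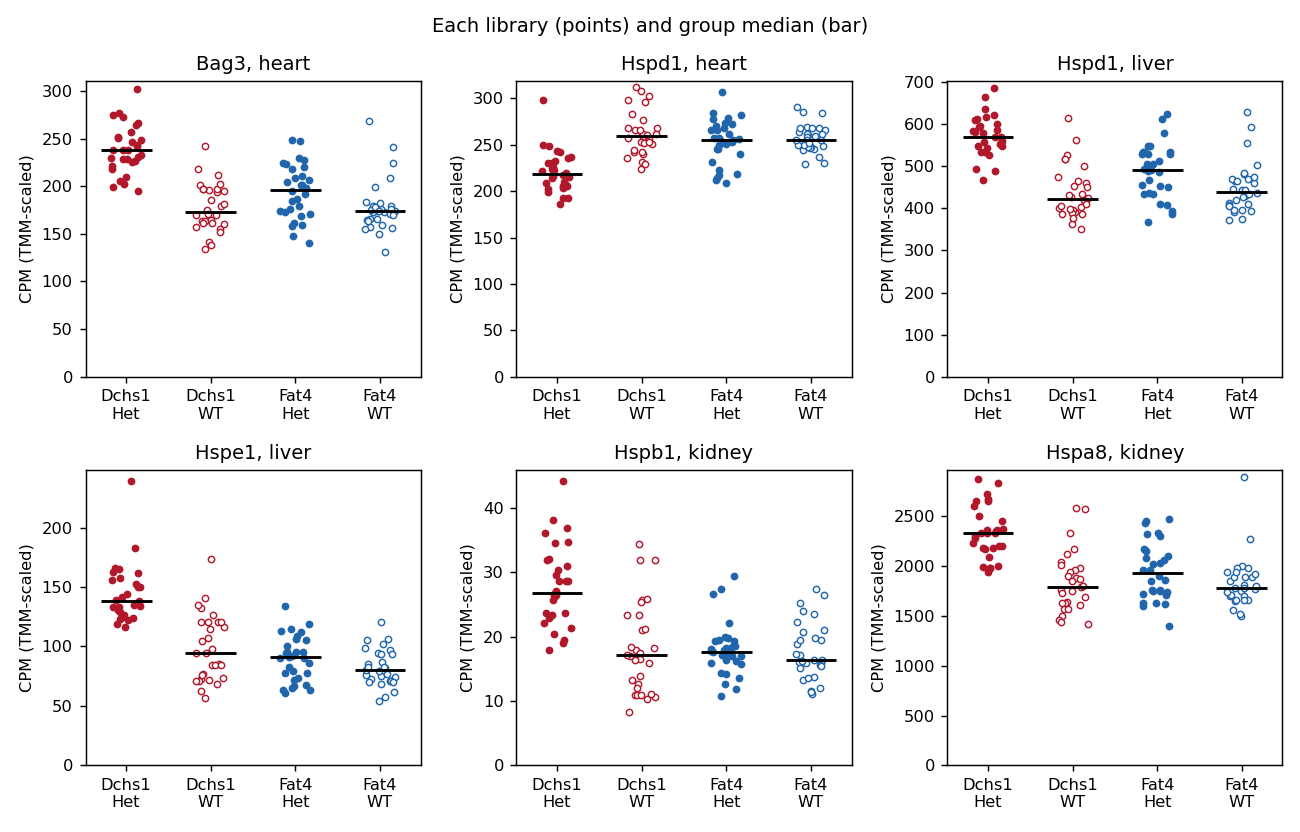
CPM of every library (points) and the group median (bars) for 6 gene and tissue pairs, Het filled and WT open, Dchs1 in red and Fat4 in blue. In the Dchs1 line every Het heart lay above the WT median for Bag3 and all but 1 below it for Hspd1. In the Fat4 line the Het and WT points overlap widely in all 6 panels, and in the Dchs1 line the ranges overlap too. All 6 pairs shown were called in the Dchs1 line and none in the Fat4 line, so the contrast partly follows from their choice.

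Dchs1 Het lung showed 2 calls, both higher, where 20% of all genes tested were called (9.6% higher and 10.4% lower). Hspb1 measured 54.97, 97.0 and 137 CPM in Het, against 39.5, 77.6 and 130 CPM in WT lungs, and 28 of 30 Het lungs lay above the WT median (0.28 ± 0.087, adjusted p = 0.0147, edgeR; 0.33 in the longest stretch). Hspa8 had medians of 1076 CPM in Het and 899 CPM in WT lungs (0.23 ± 0.067, adjusted p = 0.00909; 0.20 in the longest stretch), and lost the call on log2(TPM + 1) (adjusted p = 0.0783). Without the 5 libraries that stood apart 4 genes were called, with Dnajb1 (0.14, adjusted p = 0.0432) and Hsph1 (0.23, adjusted p = 0.0481) added. The 20% of all genes belongs to the fit with all libraries. The share without these 5 is not given here, so the added calls cannot be set against it. Of 6 leukocyte markers 4 were lower (summed 197 to 439 CPM in Het and 233 to 435 CPM in WT), of 5 fibroblast markers 3 (989 to 1573 CPM in Het and 1123 to 1927 CPM in WT), and of the 5 cardiomyocyte markers 2. Their part in the results was not tested.

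In the Fat4 line few members moved, in comparisons with fewer calls overall. In heart none of the 10 was called, where 1.6% of all genes tested were (0.969% higher and 0.628% lower; 2 members had an unadjusted p under 0.05, edgeR; DESeq2 called 0). In lung none was called either, where 0.136% of all genes were (0.11% higher and 0.0259% lower; 0 had an unadjusted p under 0.05, and DESeq2 called 0). Fold changes of the members in Fat4 lung ran from -0.068 for Hspa1b to 0.10 for Hspa8. In kidney 17.1% of all genes tested were called (9.21% higher and 7.87% lower) and, of the members, Hspd1. It measured 492, 600 and 692 CPM in Fat4 Het kidneys, against 466, 559 and 628 CPM in Fat4 WT kidneys, and 20 of 30 Het kidneys lay above the WT median (0.083 ± 0.030, adjusted p = 0.0496, edgeR). In the longest stretch that call was lost (0.079, adjusted p = 0.114) and Bag3 was called (0.12, adjusted p = 0.0232). Hspa1a and Hspa1b did not pass singly (-0.15 and -0.18, adjusted p = 0.0892 and 0.0768), but their sum was called lower (-0.17, adjusted p = 0.0475). The same sum was higher in Dchs1 Het kidney. Of 5 endothelial markers 4 were lower in Fat4 kidney (summed 296 to 424 CPM in Het and 321 to 455 CPM in WT). Of 5 kidney tubule markers 2 were lower (summed 3450 to 5752 CPM in Het and 3547 to 5847 CPM in WT). Also lower were 2 of 6 erythroid, 1 of 5 fibroblast and 1 of 4 tested leukocyte markers. Of 2 cardiomyocyte markers tested 1 was higher. The part of these markers in the results was not tested.

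In Fat4 liver 7.15% of all genes tested were called (3.64% higher and 3.51% lower) and, of 9 members, Hspa1b. It measured 3.40, 7.71 and 37.3 CPM in Fat4 Het livers, against 1.66, 5.802 and 16.9 CPM in Fat4 WT livers. The Het group held 4 livers above the highest WT liver, and 24 of 30 lay above the WT median (0.57 ± 0.18, adjusted p = 0.0440, edgeR; 0.63 in the longest stretch). Summed with Hspa1a the fold change was 0.54 and just missed the threshold (adjusted p = 0.0524), and for Hspa1b alone on log2(TPM + 1) it was 0.33 (adjusted p = 0.202). Hspa1a, under the count filter here too, was not called by the same 3 fits that kept it (0.036, 0.026 and 0.034, smallest adjusted p = 0.965). Hspd1 (0.12, adjusted p = 0.117) was called without the 5 libraries that stood apart (adjusted p = 0.0376) and in the longest stretch (adjusted p = 0.0362).

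The difference between the lines was tested directly, as the Het over WT log2 fold change in the Dchs1 line minus that in the Fat4 line. It passed for 2 of 10 genes in heart, where 25.5% of all genes did: Hspd1 (-0.23 ± 0.046, adjusted p = 7.78e-05, edgeR) and Bag3 (0.29 ± 0.071, adjusted p = 0.000932). In kidney 5 of 10 passed, where 33.5% of all genes did. Hspb1, Hspa1b and Hspa1a differed most, by 0.62 ± 0.15, 0.61 ± 0.11 and 0.56 ± 0.099, followed by Hspa8 (0.26) and Hspd1 (-0.20). For the Hsp70 pair the WT kidneys themselves differed between the lines. Mean TPM of Hspa1a was 6.85 in Dchs1 WT, 9.598 in Dchs1 Het and 10.3 in Fat4 WT kidneys. That of Hspa1b was 12.05, 17.1 and 17.5 in the same order. Hspb1 had 28.4 in Dchs1 WT and 29.2 in Fat4 WT kidneys. The part of these WT levels in the differences was not tested. In liver Hspb1 (0.83 ± 0.22), Hspe1 (0.44 ± 0.11), Hspa8 (0.42 ± 0.14) and Hspd1 (0.28 ± 0.065) passed, where 23.6% of all genes did. In lung no member passed, where 5% of all genes did (edgeR's interaction test).

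Within the Dchs1 line the effect of heterozygosity differed between tissues for 9 of the 10 genes, where it did for 52.2% of all genes tested. Dnajb1 was the exception that did not pass. The test was clearest for Hspd1 (adjusted p = 1.98e-25, edgeR's test with 3 degrees of freedom), whose fold changes were -0.24 in heart, -0.13 in kidney, 0.39 in liver and 0.018 in lung. Hspe1 followed (adjusted p = 3.38e-10), with -0.026, -0.19, 0.55 and 0.097 in the same order. In the Fat4 line Hspa1b passed (adjusted p = 0.00600), with -0.033 in heart, -0.18 in kidney, 0.57 in liver and -0.068 in lung, where 7.13% of all genes tested did.

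Levels of the members in WT tissue are given as TPM, which is scaled by library size and gene length and so allows genes to be compared. Hspa8 stood highest of the 10 in every tissue of both lines, with medians from 697 TPM in Dchs1 WT heart to 1297 TPM in Fat4 WT kidney. Hspa1a and Hspa1b stood among the lowest 3 everywhere. In heart Hspb1 and Hspd1 came next after Hspa8 (162 and 156 TPM in the Dchs1 line). In kidney and lung Hsp90aa1 did (368 and 430 TPM), and in liver Hspd1 and Hspe1 (296 and 210 TPM).

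Across tissues Bag3 was highest in heart, with 71.2, 95.2 and 138 TPM in Dchs1 WT hearts, then lung (37.4 TPM), kidney (14.8 TPM) and liver (12.6 TPM). Its heart libraries did not overlap with those of lung, nor lung with kidney, and the order was the same in the Fat4 line. Hspd1 and Hspe1 were high in kidney and liver and low in lung. Hspd1 had medians of 349, 296, 156 and 91.9 TPM in Dchs1 WT kidney, liver, heart and lung. For Hspe1 liver led in the Dchs1 line (210 TPM, kidney 198 TPM) and kidney led in the Fat4 line (207 TPM, liver 175 TPM), with overlapping ranges. Hspb1 was high in lung and heart (172 and 162 TPM, overlapping) and low in liver and kidney (30.8 and 26.6 TPM, overlapping).

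Hspa1a had the widest range, from 6.79 TPM in Dchs1 WT kidney, 6.28 TPM in lung and 1.75 TPM in heart to 0.140 TPM in liver, 48.4-fold from highest to lowest tissue, and 53.3-fold in the Fat4 line. In liver 7 of 30 Dchs1 WT and 3 of 30 Fat4 WT libraries held no read of it, and the count fit put kidney over liver at log2 fold changes of 4.84 and 4.96, smaller than these TPM ratios but also the widest gap of the 10 genes. Hspa1b did not fall as low in liver (2.99 TPM) and was lowest in heart (1.10 TPM). On TPM Hspa8 differed least, 1.68-fold in the Dchs1 line and 1.76-fold in the Fat4 line. On counts it did not: its widest gap was a log2 fold change of 1.75 and 1.77 (kidney over lung), while that of Dnajb1 was -1.10 and -1.19 (heart over kidney). Dnajb1 and Hsp90aa1 were highest in lung and lowest in heart (19.0 and 3.98 TPM, 430 and 86.5 TPM), and Hsph1 was highest in kidney and lowest in heart (42.6 and 14.2 TPM).

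These tissue orders depend on the scale. Fitted on counts with TMM scaling, 57 of 60 pairs of tissues were called in the Dchs1 line and 58 of 60 in the Fat4 line, where most genes of any kind were. In the Dchs1 line the share of all genes called was 87.1% for heart against kidney, 89.4% for heart against liver, 88.5% for heart against lung, 87.2% for kidney against liver, 89.3% for kidney against lung and 92.5% for liver against lung. In the Fat4 line the shares in the same order were 89.5%, 90.7%, 90.4%, 89.6%, 91.4% and 94.5%. The fitted fold had the sign opposite to the ratio of mean TPM in 13 and 12 of the 60 pairs. The gap between both scales was largest against lung, where the count fold exceeded the TPM ratio by a median of 1.53 (heart over lung) and 1.53 (liver over lung) on the log2 scale in the Dchs1 line. The positions of lung are therefore uncertain, as are neighbours whose ranges overlap. In 45 and 47 of the 60 pairs the test called a difference of the same sign on both scales, and Bag3 in heart over all other tissues was among these. Hspa8 in kidney over liver was called in neither line.

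**Figure D3:**
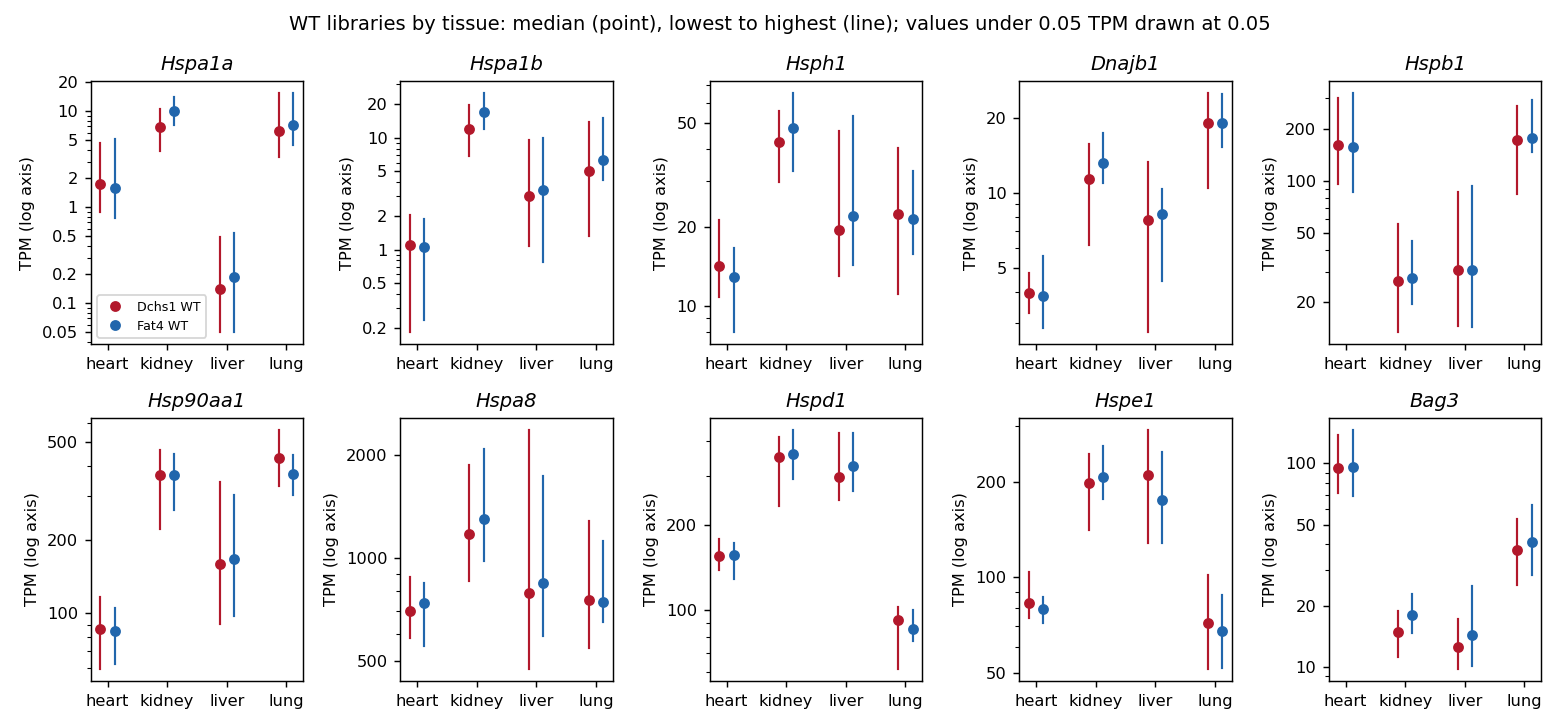
TPM on log axes in WT libraries of each tissue, as the median (point) and the lowest to highest library (line, values under 0.05 TPM drawn at 0.05), Dchs1 line in red and Fat4 line in blue. Hspa1a spans from 0.140 TPM in liver to 6.79 TPM in kidney in the Dchs1 line, and Bag3 stands highest in heart. Levels are not the same in both lines throughout: in kidney Hspa1a (10.1 TPM in the Fat4 line) and Hspa1b are higher in the Fat4 line.

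Among the WT libraries themselves Hspa1a, Hspa1b and Hspb1 varied most in heart and kidney, Hspb1 and Hspa1b in liver, where Hspa1a was not tested, and Hspa1a and Hspa1b in lung. The SD of log2(CPM + 0.5) over the 30 Dchs1 WT livers was 0.68 for Hspb1 and 0.68 for Hspa1b, which placed them at percentiles 98.1 and 98.0 of all genes tested there. Highest and lowest liver differed 6.21-fold for Hspa1b. In Dchs1 WT heart Hspa1a had an SD of 0.53 (percentile 97.8), and in Dchs1 WT kidney Hspb1 had an SD of 0.53 (percentile 98.1). Low counts alone give a larger SD, but among genes of like mean level, within 2-fold, these 4 values still stood at percentiles 98.3, 98.1, 97.1 and 98.5.

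Hspd1 had the smallest SD of the members in every WT group except Dchs1 heart, where Dnajb1 did (0.11). Its SD ran from 0.080 in Fat4 WT heart to 0.19 in Dchs1 WT liver, and its percentile from 2.6 in Dchs1 WT lung to 38.5 in Fat4 WT liver. Hspe1, the partner in the same chamber, varied more in liver and lung (SD 0.40 and 0.38 in the Dchs1 line) than in heart (0.13). Liver was the tissue of widest spread for Hsph1, Hsp90aa1 and Hspa8 too, at 0.47, 0.52 and 0.41 in the Dchs1 line.

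Whether Het libraries were spread differently from WT libraries was tested with 100000 permutations over 78 comparisons. Hspe1 in Dchs1 liver passed: the mean absolute deviation from the group median was 0.161 in Het and 0.340 in WT (log2 scale, adjusted p = 0.0242, permutation test). In the longest stretches 5 comparisons passed. No other passed when all libraries were used.

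**Figure D4:**
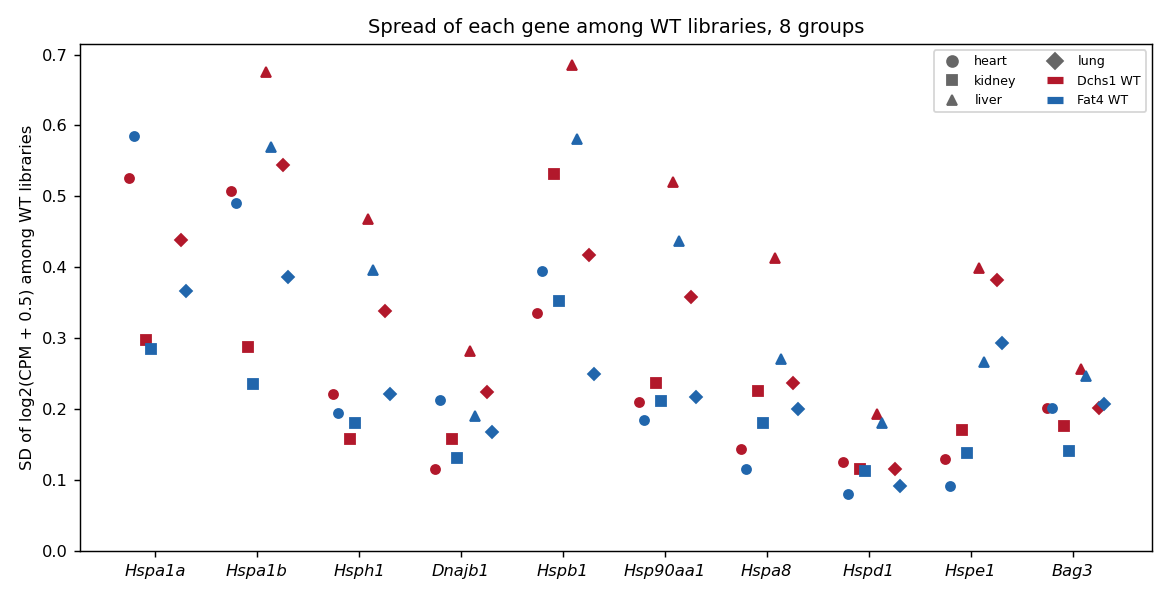
SD of log2(CPM + 0.5) among the WT libraries of each group, by gene, with tissues as symbols and lines as colours. Hspa1a, Hspa1b, Hspb1 and, in Dchs1 liver, Hsp90aa1 reach 0.5 and above, liver (triangles) is highest for most genes, and Hspd1 stays under 0.2 in all 8 groups.

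Pairs of members rose and fell together among WT libraries to differing degrees. Of 6 pairs, 46 tests could be made over the 8 WT groups of 30 libraries, and 33 passed (Spearman's rho, 100000 permutations, two-sided, Benjamini-Hochberg over the 46 tests). The share passing among pairs of other genes was not computed, so this count cannot be read as particular to these genes. Values within a library also share its depth and scaling. Hsph1 and Hspa8, the exchange factor and its Hsp70, passed in 8 of 8 groups, with rho from 0.49 to 0.76, Pearson's r from 0.57 to 0.83, and r from 0.42 to 0.75 without the 2 libraries farthest from the median (largest adjusted p = 0.0123, permutation test). They passed in 8 of 8 groups in the longest stretches of library numbers as well. Hspa1a and Hspa1b passed in 6 of 6 groups, with rho from 0.45 to 0.74 and r from 0.51 to 0.78 (0.39 to 0.67 without the 2 farthest), but in 4 of 6 in the longest stretches, with rho from 0.24 to 0.75. Part of this can follow from reads divided between them, which was not tested. Hsp90aa1 and Hspa8 passed in 6 of 8 (6 in the longest stretches), and Hsph1 and Dnajb1 in 3 of 8 (2 in the longest stretches).

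Hspd1 and Hspe1, with the run of units between them, passed in 5 of 8 groups, and in 5 in the longest stretches. Their rho was 0.81 and 0.77 in Dchs1 and Fat4 WT liver, 0.67 and 0.79 in lung and 0.58 in Dchs1 heart. In kidney it was 0.022 and -0.027, and in Fat4 heart -0.21, none of which passed. Hspb1 and Bag3 passed in 5 of 8 groups (5 in the longest stretches), with a negative rho among these in Fat4 lung alone. Their rho was 0.84 and 0.73 in heart (r = 0.88 and 0.91, and 0.82 in both without the 2 farthest libraries), 0.71 in Dchs1 kidney and 0.40 in Dchs1 liver, but -0.44 in Fat4 lung (adjusted p = 0.0226, permutation test). Pearson's r in Fat4 lung was -0.37 and did not pass (adjusted p = 0.0567, permutation test). In Dchs1 lung rho was -0.075 and did not pass. Over all 45 pairs, described with no test, the closest was Hspb1 with Hsp90aa1 (median rho 0.79, from 0.69 to 0.92 over 8 groups). The lowest median was that of Hspa1a with Hspd1 (-0.39), whose rho ran from -0.62 to 0.23 over 6 groups and so changed sign.

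**Figure D5:**
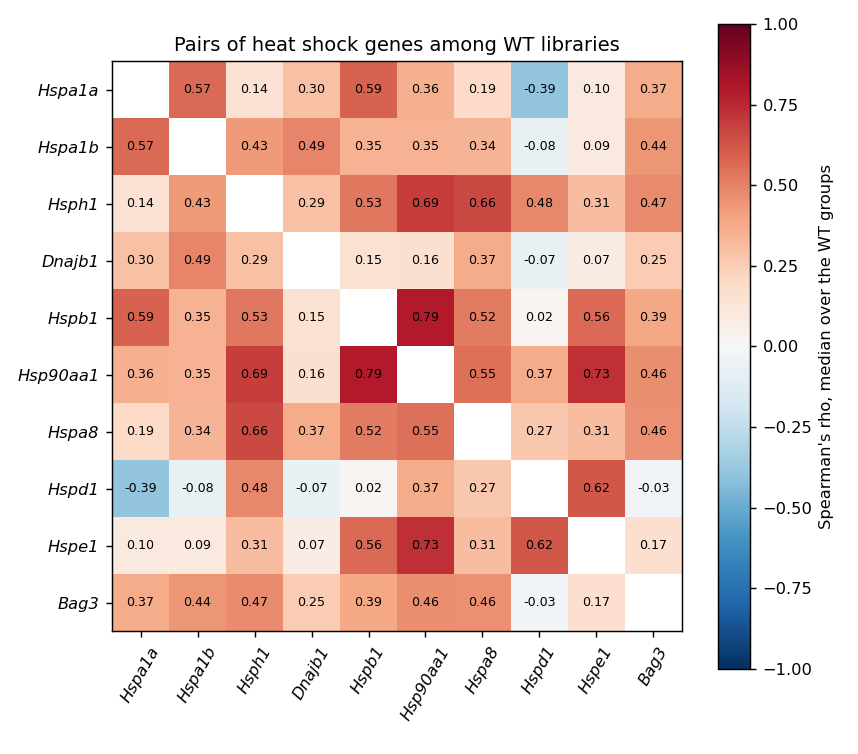
Spearman's rho of each pair of genes among WT libraries, as the median over the WT groups (8, or 6 for pairs with Hspa1a), from blue (negative) to red (positive). The deepest red is Hspb1 with Hsp90aa1 (0.79) and the only clear blue is Hspa1a with Hspd1 (-0.39).

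The genes whose pattern was most like that of the 10 members were ranked among 11300 genes by the median, over the 8 WT groups, of the rho with the members' mean z-score. In liver of both lines that mean left out Hspa1a, which fell under the count filter there. Ahsa1, which activates the Hsp90 ATPase, came at the top (0.79, from 0.37 to 0.82), followed by Hsp90ab1, the constitutive Hsp90 (0.76, from 0.59 to 0.87), and Cct2, a subunit of the cytosolic chaperonin (0.72). Ubxn4 (0.69), the chaperonin subunit Cct5 (0.68), Tubb4b (0.67), Hnrnpc (0.67), Plin2 (0.65) and Rab5if (0.65) were also among the 10 highest. At the other end stood Pitpnc1 (-0.70), Coro7 (-0.64), the circadian output factor Hlf (-0.63), Stat5a (-0.61) and the growth hormone receptor Ghr (-0.61). Such correlations share each library's depth and scaling, and are a description. Hsf1 itself stood at rank 1600 (0.28).

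Other genes of the heat shock pathway were read from lists. Their counts stand beside the share of all genes called, which was 50.2% in Dchs1 heart, 47.2% in kidney, 49.8% in liver and 20% in lung. For Fat4 heart, kidney, liver and lung it was 1.6%, 17.1%, 7.15% and 0.136%. Of 4 tested heat shock factors and regulators in the Dchs1 line, Hsf4, a factor best known in the lens, rose in heart (0.24, adjusted p = 0.00307, edgeR), and Hsbp1, which binds the HSF1 trimer, fell in kidney (-0.19, adjusted p = 1.02e-07) and liver (-0.20, adjusted p = 4.31e-06). Hsf1 was called in none of the 8 comparisons, with fold changes from -0.069 in Dchs1 lung to -0.0050 in Dchs1 heart. None of these regulators was called in the Fat4 line.

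Further HSF1 targets were called in both directions in the Dchs1 line: 8 of 20 were higher and 5 lower in heart, 4 and 3 of 20 in kidney, 6 and 1 of 19 in liver, and 4 and 1 of 20 in lung. In kidney and liver 7 of 20 and 7 of 19 were called, under the 47.2% and 49.8% of all genes, and lung, with 5 of 20, was near its 20%. In heart the smallest p belonged to Serpinh1 (-0.55 ± 0.050), the collagen chaperone of the endoplasmic reticulum, then to polyubiquitin Ubb (0.32 ± 0.031) and the small heat shock protein Cryab (-0.29 ± 0.030). In lung Serpinh1 fell (-0.39 ± 0.055), while Hspb8 (0.47 ± 0.078), a small heat shock protein and partner of Bag3, and Dnajb6 (0.16) rose. In kidney Dnaja1 fell (-0.15), while Hspb8 (0.29) and Ubb (0.11) rose. In Dchs1 liver the Hsp90 co-chaperone Fkbp4 fell (-0.31 ± 0.049) while Ubb (0.24) and Dnajb6 (0.14) rose. In the Fat4 line Serpinh1 was lower in heart (-0.17) and kidney (-0.14), 3 further targets passed in kidney, and none passed in liver or lung.

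In the Dchs1 line subunits of the cytosolic chaperonin and Hsp70 co-chaperones rose in 13 of 19 cases in liver and 10 of 19 in kidney, with 1 and 2 lower. In liver Cct6a (0.37), Tcp1 (0.39) and Cct2 (0.28) had the smallest p, with all 29 Het livers above the WT median. In kidney these were Cct2 (0.19), Cct4 (0.20) and Cct5 (0.15). Heart had 4 higher and 2 lower, led by Dnajc7 (0.21) and Dnaja2 (0.17), and lung had 3 higher. Fat4 kidney had 6 higher and 1 lower.

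Other mitochondrial chaperones and proteases were called in both directions. Their share of calls in Dchs1 heart and kidney (6 of 12 in each) was near that of all genes. In Dchs1 liver 6 of 12 rose and 3 fell, with the protease subunit Clpp (0.36), mitochondrial Hsp70 Hspa9 (0.30) and its exchange factor Grpel1 (0.32) having the smallest p. The 3 that fell, named here after their values were seen, were Htra2 (-0.33), Lonp1 (-0.22) and Trap1 (-0.11). In Dchs1 kidney 1 rose and 5 fell, with Trap1 (-0.13), Dnaja3 (-0.094) and Afg3l2 (-0.11) first by p. Heart had 3 higher and 3 lower and lung 5 higher. In Fat4 kidney 6 of 12 rose and none fell, led by Clpx (0.25).

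The cold-inducible RNA-binding genes Cirbp and Rbm3, which rise when temperature falls, were both higher in Dchs1 Het heart (0.24 and 0.15), kidney (0.33 and 0.35) and liver (0.55 and 0.55). Cirbp was higher in Dchs1 lung (0.28), and Rbm3 in Fat4 kidney (0.17) and liver (0.26). Among WT libraries their median rho with the members was -0.45 and -0.43. Beside these, of 14 chaperones of the endoplasmic reticulum 10 were lower and 2 higher in Dchs1 heart and 12 lower and 1 higher in Dchs1 kidney, while in Dchs1 liver 5 were higher and none lower, and in Dchs1 lung 1 higher and 7 lower. In heart the smallest p belonged to Hspa5 (-0.71), the endoplasmic reticulum counterpart of Hsp70, Hyou1 (-0.37) and Manf (-0.67). In Fat4 liver 12 of the 14 were higher and none lower. In Fat4 heart 6 were lower and none higher, in Fat4 kidney 1 was higher and 3 lower, and in Fat4 lung none was called. Of 9 glucocorticoid response genes all 9 were higher in Dchs1 heart, 8 in kidney, 4 in liver and 7 in lung, with none lower. Among these Mt2, a metallothionein, had one of the 3 smallest p-values in every Dchs1 tissue (1.76, 0.96, 1.21 and 0.99). In the Fat4 line 1 of the 9 glucocorticoid response genes was higher in heart, 3 in kidney and 1 in lung. None of the 9 was called in Fat4 liver, and none was lower. Of the immediate early genes 3 of 10 were higher in Dchs1 heart and 4 of 9 in Dchs1 liver, with none lower. In Dchs1 kidney none of 9 was called, in Dchs1 lung 1 of 10 was higher and 2 lower, and none of them was called in any tissue of the Fat4 line. Circadian clock genes were called in both directions in all 4 Dchs1 tissues, for example 4 higher and 6 lower of 12 in kidney, where Dbp fell (-1.68 ± 0.19, adjusted p = 5.35e-11, edgeR). The part of any of these in the members' changes was not tested.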

How the data were processed

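Poly(A) RNA of 479 libraries was sequenced single end with strand-specific KAPA kits, per the labels' protocols. FastQC and bcl2fastq 2.17 and the build GRCm38 are named in the submitters' processing notes (aligner, counter and strand setting: not given in the sources used here). Per line, the authors deposited estimated counts per NCBI gene identifier and, in a separate table, TPM. Symbols came from RefSeq (24375 of 24475 identifiers matched).

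After rounding, the estimated counts were tested with edgeR 4.0.16 (quasi-likelihood test, TMM scaling, filterByExpr with a minimum count of 10 and total of 15, Benjamini-Hochberg over all genes tested, threshold 0.05) in R 4.3.3, on the groups compared. Fold changes are Het over WT. The test was checked on simulated data. Alternatives used DESeq2 1.42.0, its size factors within edgeR, no filter, limma 3.58.1 on TPM (at least 1 TPM in 20 libraries), stretches of library numbers (a step over 2 starts a new one), libraries that stood apart (over 5 median absolute deviations) left out, and Hspa1a and Hspa1b summed. No libraries were duplicates of each other by a chi-square comparison of their counts.

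Members and gene lists were chosen with earlier results of these data known. All 10 members are named; from other lists, up to 3 called genes with the smallest p per comparison; of genes alike, the 10 highest and 5 lowest, of which 1 is not reported here.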

Additional observations from a re-analysis of the deposited data

Results flagged for a closer look

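The Het effect differed between the lines in 11 of 40 tests (edgeR's interaction test), given as the log2 fold change in the Dchs1 line minus that in the Fat4 line. In heart these were Hspd1 at -0.23 and Bag3 at 0.29. In kidney they were Hspa1a at 0.56, Hspa1b at 0.61, Hspb1 at 0.62, Hspa8 at 0.26 and Hspd1 at -0.20. In liver they were Hspb1 at 0.83, Hspa8 at 0.42, Hspd1 at 0.28 and Hspe1 at 0.44. Of all genes tested, 25.5% differed between the lines in heart, 33.5% in kidney, 23.6% in liver and 5% in lung.

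The Het effect differed between the 4 tissues of a line in 10 of 20 tests. Hspa1b gave the only Fat4 call among these. For all genes tested, the share whose Het effect differed between tissues was 52.2% with Dchs1 and 7.13% with Fat4. Each gap below is the highest minus the lowest log2 fold change over the tissues where a gene was tested singly. In the Dchs1 line the gap was 0.74 for Hspe1, 0.64 for Hspa8, 0.63 for Hspd1, 0.56 for Hspb1, 0.55 for Hspa1b, 0.45 for Bag3, 0.40 for Hspa1a, 0.38 for Hsph1 and 0.31 for Hsp90aa1. The 0.40 for Hspa1a leaves out liver, where its counts fell under the filter. In the joint fit of all 4 tissues, which kept it, the gap was 0.91. In the Fat4 line it was 0.75 for Hspa1b. The cause of these differences was not tested. The lines' libraries carry separate number ranges in the labels, so line and any batch of collection cannot be told apart.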

How the results depend on the processing

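Of single-gene results under the alternatives, 580 stayed on the same side of the threshold, 20 lost the call and 15 gained it. Of the 580, 16 changed sign, all near 0 and not called (at most 0.043 in size, smallest adjusted p = 0.707), and no called value changed sign. Of counts of members, 70 stayed within 1.5 times and 16 moved. Using the longest stretch of library numbers alone, 2 members were called in Dchs1 heart (4 with all libraries), 2 in Fat4 liver, 1 differed between lines in lung, 2 between tissues in the Fat4 line and 5 in spread. With stretch as a covariate 0 were called in Fat4 kidney and 2 in Fat4 liver. With no filter 0 were called in Fat4 kidney and 0 in Fat4 liver. On log2(TPM + 1) and log2(TPM + 0.1), 1 was called in Dchs1 lung and 0 in Fat4 liver. Without the libraries that stood apart 4 were called in Dchs1 lung and 2 in Fat4 liver, and with the Hsp70 pair summed 0 in Fat4 liver. Counts over all genes are given below for some of these settings only. The cause was not tested.

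Over all genes, 3018 were called in Dchs1 lung, against 4797 with stretch as a covariate and 4623 in the longest stretch. Fat4 heart had 211, against 95 with no filter, 332 with DESeq2, 132 on log2(TPM + 1), 331 with the covariate and 117 in the longest stretch. Fat4 kidney had 2393 and 1453 on log2(TPM + 1), and Fat4 lung 21, 58 with DESeq2 and 10 on log2(TPM + 1). On log2(TPM + 1) the share of calls that were higher was 26.1% in Dchs1 lung (47.9% on counts), 87.1% in Fat4 heart (60.7%), 68.1% in Fat4 kidney (53.9%), 13.4% in Fat4 liver (50.9%) and 60% in Fat4 lung (81.0%; 70.7% with DESeq2). No paired analysis was possible because the groups share no replicate numbers. Stretches were not fitted in Fat4 lung, which has 1. Depth limits Hspa1a in liver, where some libraries held no read.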
